A study of Mus musculus with 10 samples.

Results

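The genes described here are 29 mouse genes of cholesterol synthesis and sterol handling, taken by symbol from a matrix of 24062 genes measured in whole kidney by RNA-seq. They comprise 18 synthesis enzymes, 7 regulators and 4 genes of transport and esterification, and all 29 were read deeply enough to be among the 15547 genes tested. The study compared kidneys of adult male C57BL/6N mice with the Ehhadh genotype ko (KO, 4 animals) with those of wt mice of the same strain (WT, 4 animals). Single wt kidneys of the strains DBA_2J and 129S2_SvPasCrl were read beside them. The labels give no treatment, no age beyond adult and no description of the Ehhadh allele, and do not say whether KO and WT animals were littermates. The sex is given for the 8 C57BL/6N animals only. Ehhadh encodes the peroxisomal bifunctional enzyme of fatty acid oxidation, so the comparison asks how its loss goes with kidney gene expression.

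Cells make cholesterol from acetyl-CoA by way of mevalonate, squalene and lanosterol, in a series of enzymes most of which sit in the endoplasmic reticulum. When sterols run low, the escort protein Scap carries the membrane-bound transcription factor Srebf2 to the Golgi, where it is cut and released to switch on the genes of the pathway, while Insig proteins hold Scap back when sterols are plentiful. When oxysterols accumulate, the nuclear receptors Nr1h2 and Nr1h3 (the liver X receptors, LXR) switch on genes that export cholesterol, such as Abca1. Promoters bound by SREBP factors typically also hold sites for the co-factors NF-Y and Sp1.

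Upstream sequences of 5 of the synthesis enzymes are shown because their genes moved in opposite directions or carry the sterol element. They come from RefSeq (build GRCm38.p6), cover the 250 bases before the start site, and are written 5′ to 3′ on the strand of the gene. Capitals mark CCAAT, the letters NF-Y reads (or its reverse complement ATTGG), and TCACNNCAC, a relaxed form of the sterol regulatory element, searched on both strands. Hmgcs1 is at chr13:119690101-119690350 on the plus strand, and was the only enzyme whose window held the full element core TCACCCCAC. Msmo1 (chr8:64733579-64733828) and Hsd17b7 (chr1:169969206-169969455), both on the minus strand, were higher in KO. Cyp51 (chr5:4104698-4104947) and Ebp (chrX:8193513-8193762), also on the minus strand, were lower in KO.
Hmgcs1: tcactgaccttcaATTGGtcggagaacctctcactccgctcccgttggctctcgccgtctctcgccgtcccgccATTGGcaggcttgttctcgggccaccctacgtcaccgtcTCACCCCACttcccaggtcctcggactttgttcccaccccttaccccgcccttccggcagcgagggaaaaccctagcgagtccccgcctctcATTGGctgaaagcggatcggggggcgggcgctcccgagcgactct
Msmo1: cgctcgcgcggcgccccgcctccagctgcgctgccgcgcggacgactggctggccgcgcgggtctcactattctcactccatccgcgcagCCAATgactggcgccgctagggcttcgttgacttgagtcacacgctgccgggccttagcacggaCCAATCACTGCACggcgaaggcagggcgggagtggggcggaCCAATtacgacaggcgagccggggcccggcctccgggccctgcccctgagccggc
Hsd17b7: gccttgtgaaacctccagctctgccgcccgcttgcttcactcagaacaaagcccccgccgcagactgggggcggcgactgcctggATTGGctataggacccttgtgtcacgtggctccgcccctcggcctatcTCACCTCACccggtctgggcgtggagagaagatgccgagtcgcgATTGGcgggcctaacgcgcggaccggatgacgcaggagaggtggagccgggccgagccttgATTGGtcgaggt
Cyp51: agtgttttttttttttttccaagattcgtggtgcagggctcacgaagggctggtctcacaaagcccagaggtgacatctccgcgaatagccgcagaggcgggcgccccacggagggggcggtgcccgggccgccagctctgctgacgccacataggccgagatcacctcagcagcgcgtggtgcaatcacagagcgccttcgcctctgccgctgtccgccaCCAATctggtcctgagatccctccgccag
Ebp: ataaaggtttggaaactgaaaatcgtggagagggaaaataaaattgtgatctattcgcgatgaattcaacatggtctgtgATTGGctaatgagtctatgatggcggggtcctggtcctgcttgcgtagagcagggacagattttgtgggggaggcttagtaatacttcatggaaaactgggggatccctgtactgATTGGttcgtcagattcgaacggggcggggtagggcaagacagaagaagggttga

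Windows from 250 bases before to 50 bases after the start were found for 24 of the 29 genes, 15 of the 18 enzymes among them. Fdps, Fdft1, Sqle, Stard4 and Abcg1 had no window. CCAAT stood in at least 1 window of 14 of these 15 enzymes (93.3%), against 42.3% of protein-coding genes with a window of the same length. GGGCGG, the letters of an Sp1 site, also stood in 14 of 15, against 49.2% of protein-coding genes. TCACNNCAC was found in 4 of the 15 enzymes (26.7%), namely Hmgcs1, Msmo1, Hsd17b7 and Dhcr7, against 4.17% of protein-coding genes. Every match of TCACCCCAC is also a match of TCACNNCAC, and in Msmo1 the TCACTGCAC match begins on the last base of a CCAAT. The E-box CACGTG was in 3 of 15 enzymes (20.0%), against 8.91% of protein-coding genes. Some genes have several windows, and a gene counts once if any of them holds the letters. Of the enzymes higher in KO, Msmo1 and Hsd17b7 had a window (Fdps and Sqle did not), and each held 3 CCAAT and 1 TCACNNCAC. Among the enzymes that were lower, Ebp held 2 CCAAT and Cyp51 held 1, without a TCACNNCAC in these windows. Hmgcs1 (4 CCAAT and 1 TCACCCCAC), Mvk (5 CCAAT) and Nsdhl (4 CCAAT) held these letters too and were called neither higher nor lower in KO. The same holds for Dhcr7, with 1 TCACNNCAC in 1 window and 2 CCAAT in another. These matches are letters in a reference and show neither binding nor use.

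**Figure D1:**
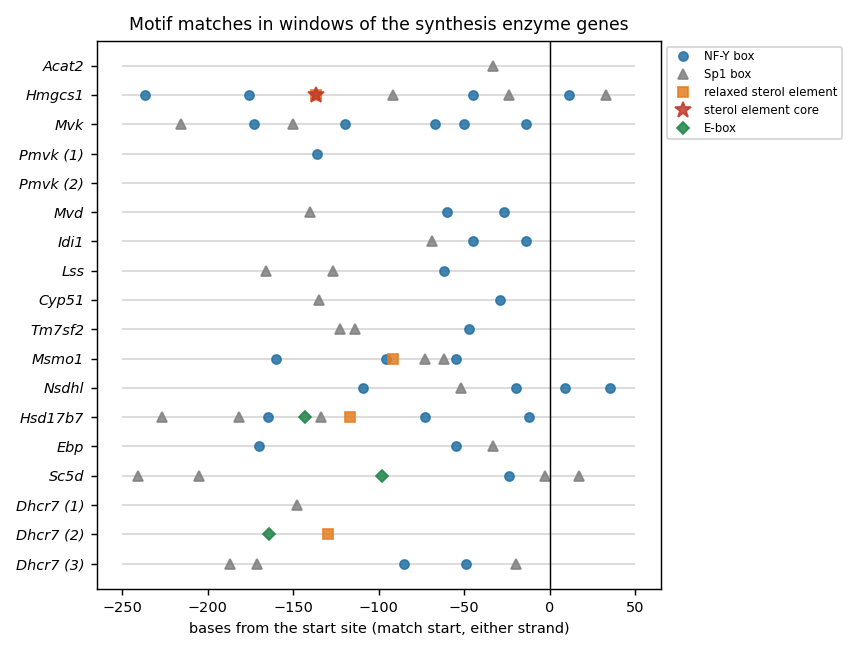
Positions of the motif matches (x axis, bases from the start site, first base of the match on either strand) in the windows of the synthesis enzyme genes, 1 row per window and 1 symbol per motif. CCAAT matches recur in 14 of 15 enzymes, while TCACNNCAC matches are seen in 4.

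The libraries held 19.8 to 57.3 M counts. KO libraries were deeper (47.2 ± 4.82 M, SD, n = 4) than WT libraries (29.8 ± 6.98 M, SD, n = 4; exact two-sided permutation test, p = 0.0286, the smallest this design allows), and levels are given as CPM, counts scaled to a common library size by TMM. Ehhadh was read at 285, 331, 248 and 176 CPM in KO replicates 1 to 4 and at 3439, 2232, 2100 and 2197 CPM in WT replicates 1 to 4, lower in each KO library than in any WT library. The sterol genes were each covered by 101 or more counts in every C57BL/6N library. Some sample titles begin with the letter E and others do not, and each form holds 2 KO and 2 WT animals. The labels do not say what the forms mark, and values within each form are given for the called genes and some others. KO and WT replicates 3 and 4 carry the E.

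Summed markers of several kidney cell types differed between the groups. All 7 collecting duct markers and 4 of 10 proximal tubule markers were called lower in KO, with collecting duct sums of 443 to 491 CPM in KO and 655 to 977 CPM in WT and proximal tubule sums of 15343 to 17856 CPM in KO and 18506 to 19438 CPM in WT. The proximal tubule markers did not all fall. Slc34a1, the largest by WT mean, was at 5607 CPM in WT and 5605 CPM in KO. Only Slc5a12 had an estimate above 0 (0.43, adjusted p = 0.0715, edgeR), and each of its KO libraries stood above every WT library. Of 5 injured tubule markers 4 were called higher, with sums of 73.7 to 116 CPM in KO and 10.9 to 16.1 CPM in WT. Of the thick ascending limb markers 2 of 4 were called lower, but their sums overlapped. These sums were 1994 to 3044 CPM in KO and 2411 to 2811 CPM in WT. Umod, the largest of the 4, had an estimate of 0.08 and was not called. Of 7 macrophage markers only Csf1r was called, as lower. Macrophage sums ran from 70.4 to 87.7 CPM in KO and from 91.8 to 103 CPM in WT. Csf1r was a large part of them, with a WT mean of 57.7 CPM and a KO mean of 37.0 CPM. Estimates were below 0 for Csf1r, C1qc and Mrc1 and above 0 for Adgre1, C1qa, C1qb and Cd68, with a median of 0.05. The lower macrophage sums thus do not show a fall shared by these markers. Of 6 adipocyte markers none was called. The part of these shifts in the results on sterol genes was not tested, and in whole kidney RNA fewer cells of a type cannot be told apart from less RNA per cell. The adrenal cortex, whose cells are rich in sterol enzymes, can be caught with the kidney. Of its 8 markers 3 were read deeply enough to be tested and none was called. Its sums were 51.1 to 57.7 CPM in KO and 46.6 to 69.3 CPM in WT (mostly Fdx1, which many tissues express). Cyp11b2 was at 0 in all 8 libraries, and the defining enzymes Cyp11a1, Cyp11b1 and Cyp21a1 stayed under 1 CPM in each. These enzymes were highest in KO replicate 2, at 0.29, 0.46 and 0.82 CPM. Hepatocyte markers had sums of 96.4 to 131 CPM in KO and 60.2 to 154 CPM in WT, and of 5 markers 4 were tested and none was called. Ttr was the largest part of these sums, with a WT mean of 75.4 CPM. Estimates were above 0 for Ttr and Fabp1 and below 0 for Apoa2 and Alb (−1.37 for Alb, adjusted p = 0.0554, edgeR). Cyp7a1, the rate-limiting enzyme of bile acid synthesis, was at 0 in all 8 libraries and was not tested.

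In KO kidneys 6 synthesis enzymes changed, and they did so in both directions. Fdps, Sqle, Msmo1 and Hsd17b7 rose by 1.28-fold to 1.61-fold, and Cyp51 and Ebp fell. In edgeR's quasi-likelihood test with Benjamini-Hochberg adjustment over all tested genes, 4 of the 29 sterol genes were called higher at an adjusted p under 0.05, where 6.32% of all tested genes were, and 2 were called lower, where 4.68% of all were. All 6 are synthesis enzymes. In the same 18 enzymes the median log2 fold change was 0.15, with 12 estimates above 0 and 6 below, beside a median of −0.01 over all tested genes. In 5 of the 29 genes every KO library stood above every WT library, against 9.77% of all tested genes. In 2 every KO library stood below, against 7.95%. These 7 are the 6 called genes and Scap.

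**Figure D2:**
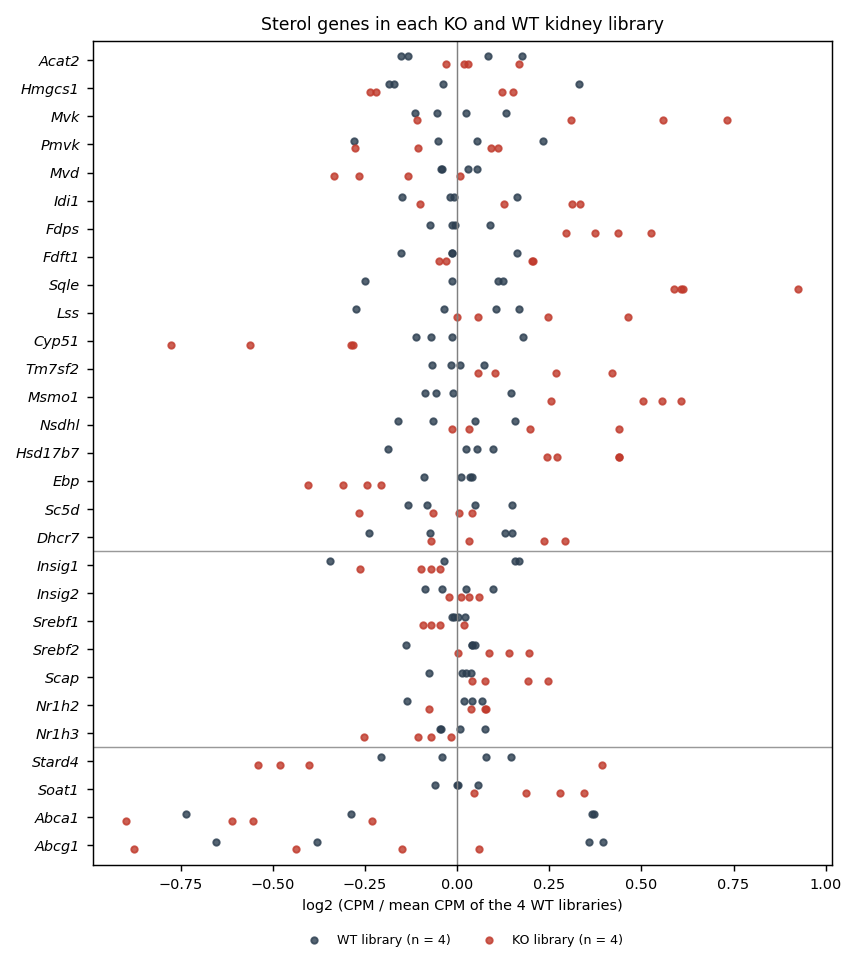
Log2 of each library's CPM over the WT mean (x axis) for the 29 genes in pathway order (y axis), with 1 point per KO and WT library. For Sqle the KO points (83.6 to 106 CPM) lie clear to the right of the WT points (46.7 to 60.6 CPM), and for Cyp51 they lie to the left.

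The early steps, from acetyl-CoA to the isoprenoid unit, held no called gene. Hmgcs1, which condenses acetoacetyl-CoA with acetyl-CoA, had the highest level per exon length of all 29 genes in WT, 129 RPKM (CPM per kilobase of counted exon). Its CPM was 460 ± 81.4 (SD, n = 4) in WT and 450 ± 65.2 (SD, n = 4) in KO, with a log2 change of −0.03 (SE 0.13, adjusted p = 0.902, edgeR). Acat2, the thiolase that supplies acetoacetyl-CoA, had a log2 fold change of 0.05 (SE 0.08), and Pmvk, the phosphomevalonate kinase, one of −0.03 (SE 0.13).

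Mvk, mevalonate kinase, was read at 11.5, 7.22, 9.65 and 12.9 CPM in KO replicates 1 to 4 and at 8.53, 7.20, 7.92 and 7.51 CPM in WT replicates 1 to 4. KO replicate 2 lay among the WT libraries and the other KO libraries above them, and the estimate of 0.41 (SE 0.16) did not pass (adjusted p = 0.134, edgeR). Without KO replicate 2 it did, with a log2 fold change of 0.55 (adjusted p = 0.0293, edgeR). Mvk differed by 0.54 with the E and by 0.22 without it. Mvd, mevalonate diphosphate decarboxylase, was at 44.3, 42.3, 48.6 and 53.6 CPM in KO and at 51.8, 51.6, 54.4 and 55.3 CPM in WT. Only KO replicate 4 reached the WT range, and the estimate was −0.18 (SE 0.08, adjusted p = 0.167, edgeR), with an adjusted p of 0.0375 without that library. Idi1, the isomerase that makes the reactive isoprenoid unit, had an estimate of 0.17 on the log2 scale (SE 0.11, adjusted p = 0.373, edgeR), from 11.9 to 13.5 CPM.

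Fdps, farnesyl diphosphate synthase (chr3:89093588-89101967, minus strand, mm10), makes the last intermediate before the pathway branches to squalene, dolichol, ubiquinone and prenylated proteins. It was read at 17.0, 18.9, 16.1 and 17.7 CPM in KO replicates 1 to 4 and at 13.1, 13.9, 13.0 and 12.5 CPM in WT replicates 1 to 4. The groups did not overlap, and Fdps rose by 0.41 on the log2 scale (SE 0.08, adjusted p = 0.00866, edgeR). The difference was 0.41 in titles with the E and 0.41 in those without. Fdft1, squalene synthase, had an estimate of 0.09 on the log2 scale (SE 0.09, adjusted p = 0.571, edgeR). Its exons share 774 bases with Ctsb on the other strand, counting used no strand, and Ctsb (chosen after its values were seen) rose from 680 to 890 CPM, so the Fdft1 counts are uncertain.

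Sqle, squalene epoxidase (chr15:59315092-59331193, plus strand, mm10), adds the oxygen that the first sterol ring closes on and is a known control point of the pathway. Its estimate was the largest of the 29 genes. Its level was 84.6, 84.9, 83.6 and 106 CPM in KO replicates 1 to 4 and 55, 46.7, 60.6 and 60.0 CPM in WT replicates 1 to 4. KO replicate 4 stood highest, 3 KO libraries lay close together, and the lowest KO library was above the highest WT library. Sqle rose 1.61-fold, or 0.69 on the log2 scale (SE 0.10, adjusted p = 0.0015, edgeR). With the E the difference was 0.64 and without it 0.74. Lss, lanosterol synthase, which closes the rings, had an estimate of 0.20 on the log2 scale (SE 0.13, adjusted p = 0.352, edgeR), with 188 exon bases shared with a gene on the other strand.

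Cyp51 (chr5:4080674-4104697, minus strand, mm10) removes the methyl group at carbon 14 of lanosterol, the first step after ring closure. Its level was 123, 106, 149 and 150 CPM in KO replicates 1 to 4 and 173, 180, 206 and 168 CPM in WT replicates 1 to 4. No KO library reached the lowest WT library, and Cyp51 fell by 0.46 on the log2 scale (SE 0.11, adjusted p = 0.0214, edgeR). Leaving out KO replicate 1 ended the call (edgeR adjusted p = 0.0655), as did leaving out WT replicate 2 (0.0504) and WT replicate 3 (0.0689). The difference was −0.32 in titles with the E and −0.63 in titles without it.

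Msmo1 (chr8:64718145-64733578, minus strand, mm10) oxidises the methyl groups at carbon 4. It was read at 18.1, 17.5, 16.9 and 14.2 CPM in KO replicates 1 to 4 and at 11.8, 11.2, 13.2 and 11.4 CPM in WT replicates 1 to 4. The lowest KO library, replicate 4, was still above the highest WT library, and Msmo1 rose by 0.48 on the log2 scale (SE 0.10, adjusted p = 0.0104, edgeR). The difference was 0.33 in titles with the E and 0.63 in titles without it. Hsd17b7 (chr1:169949537-169969205, minus strand, mm10), the ketoreductase of the same demethylation, was at 36.1, 40.7, 35.5 and 40.6 CPM in KO and at 31.1, 26.3, 32.1 and 30.5 CPM in WT. It rose by 0.35 (SE 0.08, adjusted p = 0.0168, edgeR), a call lost without KO replicate 2 (adjusted p = 0.0521), with differences of 0.28 with the E and 0.42 without it. Nsdhl, the decarboxylase between these enzymes, overlapped between groups, at 34.7 CPM in WT and 39.1 CPM in KO (adjusted p = 0.322, edgeR).

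Ebp (chrX:8185331-8193512, minus strand, mm10) shifts the double bond in the sterol ring late in the pathway. Its level was 66.4, 57.9, 64.7 and 61.8 CPM in KO replicates 1 to 4 and 72.1, 78.9, 78.6 and 77.3 CPM in WT replicates 1 to 4. The groups did not overlap and each was narrow, and Ebp fell by 0.29 on the log2 scale (SE 0.06, adjusted p = 0.0112, edgeR). Within titles with the E the difference was −0.30, and within those without it −0.28. Tm7sf2, a sterol reductase, was at 15.9 CPM in WT and 18.5 CPM in KO (adjusted p = 0.149, edgeR). Sc5d and Dhcr7, the desaturase and the reductase near the end of the pathway, had log2 fold changes of −0.07 (SE 0.09) and 0.13 (SE 0.11).

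**Figure D3:**
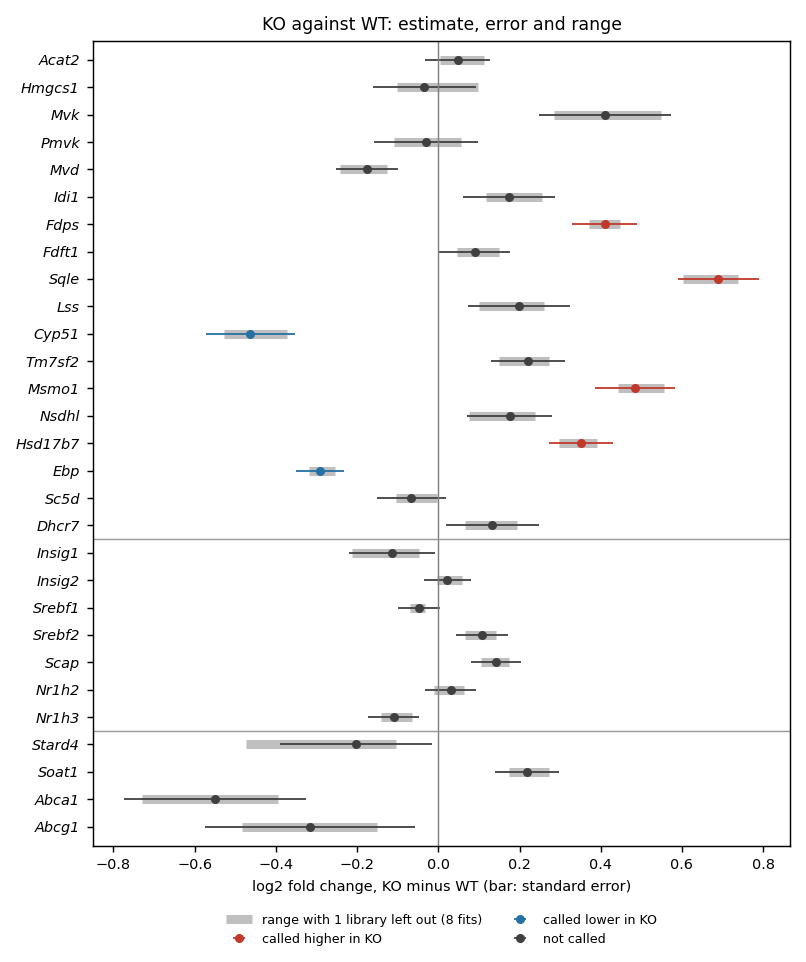
Log2 fold change of KO over WT (x axis, bar: standard error) for the 29 genes in pathway order (y axis), with called genes in colour and the range of the 8 estimates that each left out 1 library as a grey bar. Sqle at 0.69 is the highest estimate and Abca1 at −0.55 the lowest, and Abca1 has one of the widest errors.

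The 7 regulators held no called gene, and their estimates ran from −0.11 to 0.14. Srebf2, the sterol-regulated transcription factor of the pathway, was at 86.1, 91.3, 94.8 and 98.5 CPM in KO replicates 1 to 4 and at 88.5, 89.0, 88.4 and 78.2 CPM in WT replicates 1 to 4. The groups overlapped in KO replicate 1, and the log2 fold change was 0.11 (SE 0.06, adjusted p = 0.322, edgeR). Srebf1, better known for fatty acid genes, was at 43.9 ± 0.488 CPM in WT and 42.4 ± 1.42 CPM in KO (SD, n = 4 each). Srebf1 shares 107 exon bases with a gene on the other strand.

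Scap, the escort protein, was read at 135, 125, 122 and 140 CPM in KO replicates 1 to 4 and at 121, 119, 120 and 112 CPM in WT replicates 1 to 4. Every KO library stood above every WT library, the nearest pair by little, and the estimate of 0.14 (SE 0.06) did not pass the test (adjusted p = 0.168, edgeR). Insig2, which retains Scap and is less dependent on SREBP than Insig1, had a log2 fold change of 0.02 (SE 0.06). Insig1, which both retains Scap and is itself a target of SREBP, was at 29.3, 25.7, 29.8 and 28.8 CPM in KO and at 34.3, 34.6, 30.0 and 24.2 CPM in WT. WT replicates 1 and 2, without the E, were highest and WT replicate 4 was lowest. The estimate of Insig1 was −0.11 (SE 0.11, adjusted p = 0.552, edgeR), with 0.12 in titles with the E and −0.33 in titles without it. The LXR genes Nr1h2 and Nr1h3 had log2 fold changes of 0.03 (SE 0.06) and −0.11 (SE 0.06).

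None of the 4 transport and ester genes was called, and Abca1, Abcg1 and Stard4 varied most between animals of a group. Abca1, the exporter that loads cholesterol onto apolipoprotein A-I and a known LXR target, was read at 28.8, 27.7, 36.0 and 22.7 CPM in KO replicates 1 to 4 and at 54.6, 54.4, 34.6 and 25.3 CPM in WT replicates 1 to 4. WT replicates 1 and 2 stood far above all KO libraries, while WT replicates 3 and 4 lay among them. The estimate was −0.55 (SE 0.22, adjusted p = 0.145, edgeR). The difference was −0.95 in titles without the E and −0.05 in those with it, and a test of genotype by title form gave an adjusted p of 0.674 in edgeR. That test called 0 of 15547 genes in edgeR, with 1004 at an unadjusted p under 0.05, Abca1 and Insig1 among them. Without WT replicate 4, Abca1 passed at −0.73 (adjusted p = 0.0293, edgeR).

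Stard4, a soluble carrier that moves sterol between membranes, was at 17.8, 18.5, 19.5 and 33.9 CPM in KO replicates 1 to 4 and at 25.1, 28.6, 27.3 and 22.4 CPM in WT replicates 1 to 4. KO replicate 4 was above every WT library and the other KO libraries were below every one. Stard4 had an estimate of −0.20 (SE 0.19, adjusted p = 0.547, edgeR) with all libraries and of −0.47 (adjusted p = 0.00931, edgeR) without KO replicate 4. Its difference was 0.06 with the E and −0.56 without it. Soat1, which esterifies cholesterol for storage, was at 23.3, 19.0, 22.3 and 20.9 CPM in KO and at 18.4, 19.1, 17.6 and 18.4 CPM in WT. KO replicate 2 lay just under the highest WT library, and the estimate of Soat1 was 0.22 (SE 0.08, adjusted p = 0.101, edgeR). Abcg1, a further LXR-driven exporter, had the lowest level per length of the 29 genes in WT, 1.16 RPKM, and a log2 change of −0.32 (SE 0.26, adjusted p = 0.490, edgeR).

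Per exon length the WT enzymes ran from 4.16 RPKM for Idi1 to 129 RPKM for Hmgcs1. After Hmgcs1 came Acat2 at 53.0, Ebp at 44.1 and Cyp51 at 41.8 RPKM. Among the genes that rose, Sqle was at 20.2 RPKM in WT and 32.6 RPKM in KO, while Fdps (8.98 RPKM), Hsd17b7 (6.55 RPKM) and Msmo1 (6.53 RPKM) had low WT levels. The 2 enzymes that fell thus had higher WT levels per length than the 4 that rose. Cyp51 was at 41.8 RPKM beside 20.2 RPKM for Sqle in WT, and at 30.3 RPKM beside 32.6 RPKM in KO.

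**Figure D4:**
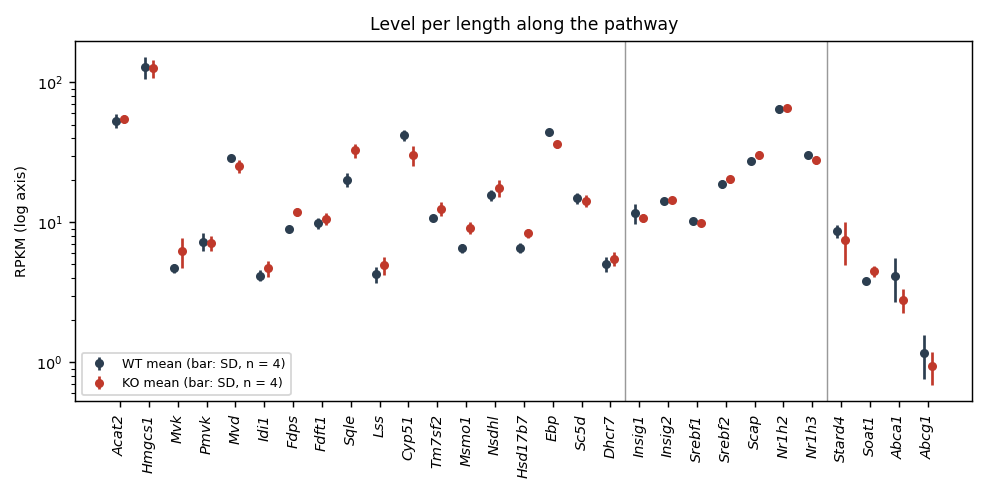
Level per exon length (RPKM, log axis) of the 29 genes in pathway order, for the WT and KO groups (points: mean, bars: SD, 4 libraries each). Hmgcs1 at 129 RPKM is highest in WT and Abcg1 at 1.16 RPKM lowest.

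In the wt kidneys of DBA_2J and 129S2_SvPasCrl many of these genes stood outside the C57BL/6N WT range. With 1 library per strain there is no test, the 2 comparisons share the 4 WT libraries with each other and with KO against WT, and WT and KO means here use scaling over all 10 libraries. DBA_2J was above every WT library in 20 of the 29 genes, against 35.1% of all tested genes, and below every one in 6, against 37.3%. The 129S2_SvPasCrl library was above in 21, against 32.5% of all tested genes, and below in 4, against 32.1%. Cell type marker sums also differed. Injured tubule sums were 14.7 CPM in DBA_2J and 71.9 CPM in 129S2_SvPasCrl (10.9 to 16.1 CPM in WT). Collecting duct sums were 510 and 847 CPM (655 to 977 CPM in WT), and hepatocyte sums 4.72 and 222 CPM (60.2 to 154 CPM in WT). Adrenal cortex sums were 67.6 and 80.5 CPM (46.6 to 69.3 CPM in WT). Macrophage sums were 126 and 121 CPM (91.8 to 103 CPM in WT). Adipocyte sums were 10.2 and 10.2 CPM (21.5 to 72.8 CPM in WT). Proximal tubule sums were 21241 and 19470 CPM (18506 to 19438 CPM in WT). Thick ascending limb sums were 2151 and 3308 CPM (2411 to 2811 CPM in WT). These WT ranges use scaling over the KO and WT libraries. The part of these shifts in the strain values was not tested.

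Idi1 stood furthest above WT, at 68.4 CPM in DBA_2J and 50.4 CPM in 129S2_SvPasCrl beside 11.8 ± 1.07 CPM (SD, n = 4) in WT. Cyp51 was at 606 and 339 CPM in DBA_2J and 129S2_SvPasCrl, beside 181 CPM in WT and 131 CPM in KO. Nsdhl was at 142 and 60.7 CPM beside 34.5 CPM in WT. In these genes DBA_2J was the higher of the pair.

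Sqle and Mvk had the opposite order of the strains. Sqle was at 101 CPM in DBA_2J and 137 CPM in 129S2_SvPasCrl, beside 55.2 CPM in WT and 88.8 CPM in KO. Mvk was at 19.1 and 24.3 CPM beside 7.74 CPM in WT. Of the other genes called higher in KO, Msmo1 was at 21.1 and 20.3 CPM beside 11.8 CPM in WT and 16.5 CPM in KO. Fdps was at 16.4 and 15.4 CPM beside 13.0 CPM in WT and 17.3 CPM in KO, and Hsd17b7 at 36.6 and 33.7 CPM beside 29.8 CPM in WT and 37.9 CPM in KO. For Fdps and Hsd17b7 both strain libraries thus lay between the WT and KO means.

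Other enzymes stood below the C57BL/6N range. Sc5d was at 11.9 CPM in DBA_2J and 11.7 CPM in 129S2_SvPasCrl beside 33.4 ± 2.93 CPM (SD, n = 4) in WT, 2.80-fold and 2.85-fold lower. Hmgcs1 was at 282 and 238 CPM beside 457 CPM in WT, and Fdft1 at 24.8 and 24.0 CPM beside 28.2 CPM. Ebp was at 66.0 CPM in DBA_2J, under the WT range, and at 76.8 CPM in 129S2_SvPasCrl, within it. Among the regulators Scap was at 184 and 170 CPM beside 118 CPM in WT, while Nr1h2 lay within the WT range in both. Soat1 was at 39.2 and 31.0 CPM beside 18.3 CPM in WT, and Abca1, at 43.4 and 27.0 CPM, lay within the wide WT range. Reads were aligned to the mm10 reference, which is a C57BL/6 genome, and any part of sequence differences between strains in these values was not tested. The Ehhadh level was 796 CPM in DBA_2J and 788 CPM in 129S2_SvPasCrl.

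**Figure D5:**
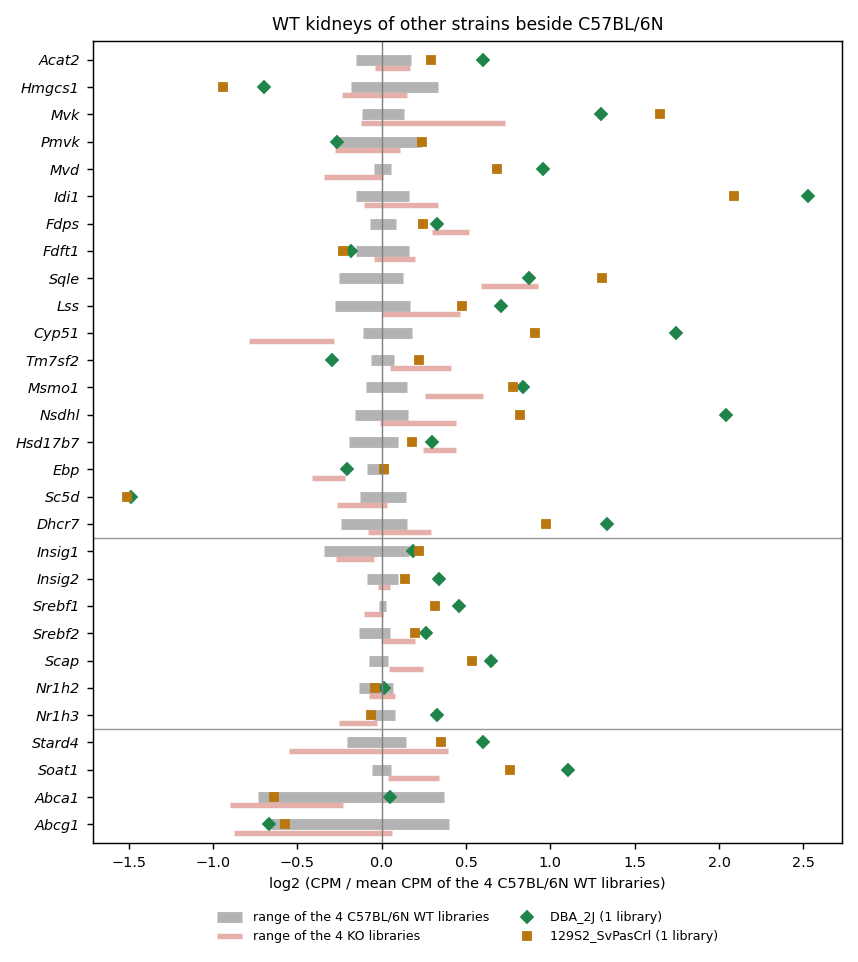
Log2 of CPM over the C57BL/6N WT mean (x axis) for the single DBA_2J and 129S2_SvPasCrl libraries (points), with the range of the 4 WT libraries (grey bar) and of the 4 KO libraries (red bar), for the 29 genes in pathway order. Idi1 lies furthest right (68.4 and 50.4 CPM beside 11.8 CPM in WT) and Sc5d furthest left (11.9 and 11.7 CPM beside 33.4 CPM).

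Beyond the 29 genes, 41 other sterol genes from a list of 42 were read and tested, and 1 was called higher (2.44%, against 6.32% of all tested genes) and 2 lower (4.88%, against 4.68%). Npc2, the soluble carrier that hands cholesterol on inside lysosomes, was at 132, 122, 133 and 134 CPM in KO replicates 1 to 4 and at 110, 114, 103 and 102 CPM in WT replicates 1 to 4. The groups did not overlap, and Npc2 rose by 0.28 on the log2 scale (SE 0.06, adjusted p = 0.012, edgeR). It was the only call among 11 further transport and ester genes.

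Both genes called lower were among 9 genes of oxysterols and LXR. Cyp46a1, cholesterol 24-hydroxylase, was at 3.50 ± 0.374 CPM in WT and 2.08 ± 0.330 CPM in KO (SD, n = 4 each), a fall by 0.75 on the log2 scale (SE 0.17, adjusted p = 0.0191, edgeR). Its call was lost in 4 of 8 fits that each left out 1 library, with adjusted p up to 0.0642 without WT replicate 3. Mylip, an LXR-induced ubiquitin ligase for lipoprotein receptors, was at 21.0, 28.7, 26.6 and 21.8 CPM in KO and at 41.8, 39.6, 39.3 and 24.5 CPM in WT. WT replicate 4 lay among the KO libraries. Mylip fell by 0.57 on the log2 scale (SE 0.16, adjusted p = 0.0438, edgeR), and of 8 fits that each left out 1 library, those lacking KO replicate 2 and WT replicate 4 kept the call, with adjusted p up to 0.118 in the other 6.

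None of 8 genes on the branches of the mevalonate pathway was called, with estimates from −0.01 to 0.18. The smallest p belonged to Pdss2, of ubiquinone synthesis (log2 fold change 0.17, SE 0.10), and Fnta, of protein farnesylation (0.09, SE 0.05). None of 4 accessory enzyme genes was called. Among them were Lbr, a lamin receptor with sterol reductase activity (−0.31, SE 0.10, adjusted p = 0.0726, edgeR), and Pgrmc1, a haem-binding partner of Cyp51 (−0.15, SE 0.06, adjusted p = 0.108, edgeR), whose KO libraries all lay below WT. Lbr passed as lower with title form as a term (adjusted p = 0.0295, edgeR), in DESeq2 (0.0391), in titles without the E (0.0423), and without KO replicate 4 (0.018) or WT replicate 1 (0.0382). None of 9 genes of SREBP processing and sterol-regulated degradation was called, with Rnf139, a ubiquitin ligase of the endoplasmic reticulum, at 0.20 (SE 0.06, adjusted p = 0.0622 in edgeR and 0.042 in DESeq2).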

How the data were processed

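Polyadenylated RNA of 10 kidneys was sequenced as single-end reads, per the labels' protocols. STAR, featureCounts and edgeR and build mm10 (GRCm38) are named in the submitters' processing notes. Per the file headers, primary alignments were assigned to UCSC mm10 exons with featureCounts 1.5.2, with each read given to every gene it overlapped and no strand option, so overlapping genes share reads. The authors deposited raw counts per library, a joined matrix that equalled them in 10 of 10 columns, and log2 values of 13645 genes, which equal voom's log2 CPM.

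The KO and WT counts (8 libraries) were fitted in edgeR 4.0.16 (R 4.3.3; filterByExpr, TMM, glmQLFit, glmQLFTest) on genotype, with Benjamini-Hochberg adjustment over 15547 genes. The standard error is the log2 fold change divided by the square root of F. RPKM divides CPM by the counted exon length. The script was tested on simulated counts. Replicates are numbered by accession and are not paired. The design text counts animals, so replicates are taken as separate animals.

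Alternatives were DESeq2 1.42.0, RLE factors, voom in limma 3.58.1, no filter, title form as a term or as a subset, thinned counts, leaving out each library and, chosen after seeing the data, limma on the deposited log2 values. The genes and lists were chosen with earlier results of these data known. All 29 genes are named. Of the further sterol genes those called are named, or the 2 with the smallest p per list without a call. Called markers are given as counts. One symbol of the lists (Faxdc2) was not matched, and 2 were matched by an older name. Some genes of the pathway, including ones this rule picks, are not reported here.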

Additional observations from a re-analysis of the deposited data

Results flagged for a closer look

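Within the 4 animals of a group, 3 values stood apart from the rest by Dixon's criterion at 95%. Sqle was at 105.5 CPM in KO replicate 4, with the next KO library at 84.9 CPM. Srebf2 was at 78.2 CPM in WT replicate 4, with the next WT library at 88.4 CPM. Stard4 was at 33.9 CPM in KO replicate 4, with the next KO library at 19.5 CPM. These are 3 of 58 combinations of gene and group (5.17%), where chance gives about 1 in 20.

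Fdft1 moved in opposite directions between the title forms, with no overlap of the groups within either. Its log2 difference of KO minus WT was −0.026 in titles with the leading E and 0.20 in titles without it. The test of genotype by title form gave an adjusted p of 0.809 in edgeR. With 2 libraries per genotype in each form, groups can stay apart by chance, and 1 of the 29 genes showed this pattern. The Fdft1 counts are also uncertain because its exons share 774 bases with Ctsb.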

How the results depend on the processing

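Over 17 alternatives, 585 of 646 values of single genes kept their direction and call, 30 lost a call, 15 gained one and 16 changed sign, all 16 of genes not called. In titles with a leading E alone (2 animals per group) edgeR called 0 of the 29 genes higher and 0 lower, 0 and 0 of the further sterol genes, and 92 and 51 of all genes. There the log2 fold changes of Acat2 (−0.034), Fdft1 (−0.025), Insig1 (0.11) and Stard4 (0.11) changed sign. In titles without it 3 of the 29 genes were called higher and 5 lower, 2 and 4 of the further genes, and 924 and 799 of all genes, and Hmgcs1 (0.062), Pmvk (0.013), Insig2 (−0.027) and Srebf2 (−0.0037) changed sign. Each subset holds 2 animals per group, fewer than the main fit, and can call less. The counts of calls still differed between these subsets of equal size, and the cause was not tested. In titles without the E, Fdps (adjusted p = 0.0515) and Ebp (0.0536) lost their calls in edgeR, while Mvd (0.0444), Insig1 (0.0433), Stard4 (0.00439) and Abca1 (1.65e-05) gained one as lower. Within both title forms the groups of all 6 called genes stayed apart in the direction of the call. That follows from their lack of overlap across all KO and WT libraries and is no further test. DESeq2 called 2 further genes higher and 4 lower. Voom, limma on the deposited values and thinned counts each called 1 lower. In thinned counts Fdft1 changed sign (−0.0042) and Soat1 gained a call (adjusted p = 0.0351, edgeR). With 1 library left out, the 29 genes gave 4 to 4 calls higher and 1 to 4 lower, the further genes 1 to 1 and 0 to 4, and all genes 610 to 916 and 381 to 722. Log2 fold changes then ran across 0 for Hmgcs1 (−0.10 to 0.10; positive without KO replicates 1 or 3 or WT replicate 4), Pmvk (−0.11 to 0.055; positive without KO replicate 3 or WT replicate 1), Insig2 (−0.0045 to 0.059) and Nr1h2 (−0.011 to 0.064), the last 2 negative without WT replicate 4. The cause of these changes was not tested. With 4 animals per group and 19.8 M counts in the shallowest library, precision was limited. Among the 29 genes the standard error was largest for Abcg1 (0.26, at 6.76 CPM in WT) and Abca1 (0.22, at 42.3 CPM in WT), so it did not simply follow level. No paired analysis was possible because replicate numbers follow accession order.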
